A study of Oryza sativa Japonica Group with 8 samples.

Results

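Glutelins are the main storage proteins of the rice grain. They are legumin-type globulins that are made as precursors on the endoplasmic reticulum of the endosperm, carried to storage vacuoles and cut there into an acidic and a basic chain joined by a disulfide bond. Their genes form the GluA, GluB, GluC and GluD groups, and are known for strong transcription in the endosperm during grain filling under the bZIP factor RISBZ1 and the Dof factor RPBF. The 7 loci described here were picked from the 41805 loci of the deposited table by identifier, as those placed at glutelin genes of chromosomes 1, 2, 3 and 10 by their position in MSU Release 7. The choice was made with their values known: each stood above 1000 FPKM (fragments scaled by length and mapped reads) in mature seeds and was listed at exactly 0 in milk grains. Those values therefore describe the 7 loci and support nothing further.

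The libraries came from japonica rice (Oryza sativa) grown in a greenhouse, and polyadenylated RNA was sequenced with strand kept and single-end reads. They were mature seeds, milk grains (immature grains with fluid contents), flowers of the flowering day, flower buds, flag leaves after and before flowering, and roots sampled after and before flowering. Leaf and root material of each period was a mixture of stages, per the labels' protocols, and no treatment or mutant was involved. Each of the 8 groups had 1 library, so no value has a replicate error and no test was run. The root library labelled after flowering had a Spearman correlation of 0.96 across loci with leaves after flowering and 0.63 with roots before flowering, and results that use it rest on its label. Read totals were not given. As a rough estimate, the steps between values at loci of 101 bp put depth at 1.65 to 7.79 times that of mature seeds in the other 7 libraries. The root library labelled after flowering was the deepest by these steps. Smallest values above 0 at loci of 1976 to 2101 bp ordered the libraries somewhat differently. The steps at 101 bp were 7.48% to 10.9% larger on the minus strand than on the plus strand, so loci on opposite strands that lie within about that distance cannot be ordered.

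Of the 7 loci, P_XLOC_003147 lies on chromosome 1 (32076732 to 32078743, plus strand) and P_XLOC_019146 on chromosome 3 (17864278 to 17866253, plus strand). M_XLOC_006573 lies on chromosome 10 (13496720 to 13503816, minus strand). The other 4 are on chromosome 2: P_XLOC_014075 (8446601 to 8448701, plus strand), P_XLOC_014186 (9580481 to 9582525, plus strand), M_XLOC_014861 (9586007 to 9588016, minus strand) and M_XLOC_015361 (14991648 to 14993715, minus strand). Spans ran from 1976 to 2101 bp, except the chromosome 10 locus at 7097 bp. The deposited table gives no gene names, exons or untranslated regions. In the RefSeq gene table of another assembly (ASM3414082v1), 7 genes carry glutelin names: GLUA1 on chromosome 1, GLUA3 on chromosome 3, GLUA2 on chromosome 10, and GLUD1, GLUB2, GLUB5 and GLUB4 on chromosome 2. The number per chromosome is the same as that of the 7 loci, with 1, 4, 1 and 1 on chromosomes 1, 2, 3 and 10. This match is of counts only. The 7 loci were placed at genes of the GluA, GluB and GluC types. The RefSeq names include GLUD1, which has GluC among its synonyms. None of the deposited identifiers was found there, however, so no single locus was given a gene name. The regulators, folding factors and sorting factors of glutelins could not be placed for the same reason. Below, the glutelin loci are these 7 only. Whether other loci are glutelin genes could not be looked up.

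All 7 loci were among the highest values of mature seeds. P_XLOC_003147 stood at 38067 FPKM, rank 20 of all loci, and M_XLOC_006573 at 28454 FPKM, rank 27. M_XLOC_015361 had 10674 FPKM and P_XLOC_014075 had 7748 FPKM, ranks 68 and 91. Among loci of at least 300 bp, P_XLOC_003147 ranked 10 and M_XLOC_006573 ranked 13, and within their own strands they ranked 8 and 18. The order ended with P_XLOC_014186 at 3381 FPKM, P_XLOC_019146 at 2764 FPKM and M_XLOC_014861 at 1363 FPKM, the last at rank 337. Neighbours in this order were further apart than the gap between strands, but without replicates their spread is unknown. Together the 7 loci held 1.74% of the FPKM sum of mature seeds. That sum and the ranks over all loci include short loci. In mature seeds, 1 step between values at loci of 101 bp was 6723 FPKM (plus strand) or 7246 FPKM (minus strand). The median over all loci in that library was 3.13 FPKM. In bulk tissue, fewer cells of a type and less RNA per cell cannot be told apart, so these levels are averages over whole tissue.

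**Figure D1:**
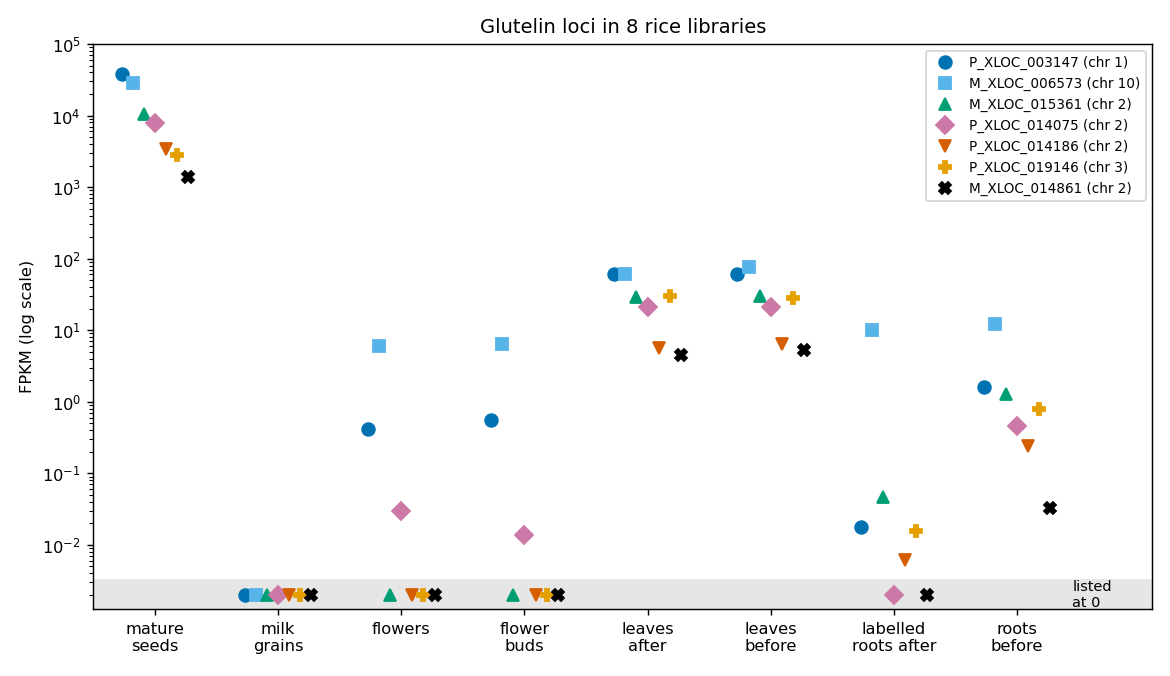
FPKM of the 7 glutelin loci (log scale) in each of the 8 libraries, 1 point per locus and library, with values listed at 0 on the grey strip. All 7 stand between 1363 and 38067 FPKM in mature seeds, at 0 in milk grains, and between 4.51 and 75.5 FPKM in both leaf libraries.

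Levels outside seeds were set against mature seeds by log2 of (FPKM + 1), a scale that understates ratios of low values. Mature seeds were at least 4-fold above the highest of the 6 non-seed libraries at 7 of 7 loci, where 6.11% of 40970 loci with at least 1 FPKM were so. This share is given as background to loci that were chosen for their seed level. The log2 ratio ran from 6.48 at P_XLOC_019146 to 9.26 at P_XLOC_003147, with a median of 8.45, against a median of -1.42 over all compared loci. For every one of the 7, the highest non-seed value came from a leaf library.

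Mature seeds held the highest listed value of each of these loci, and milk grains the lowest. That lowest value was shared: 4 of the 7 were also listed at 0 in flowers and flower buds, and 2 in the labelled roots after flowering. Each of the 7 was listed at exactly 0 in milk grains, beside 1363 to 38067 FPKM in mature seeds, and no ratio is given because an exact 0 without counts can be a failed estimate. Glutelin transcripts are known to accumulate while the grain fills. Among the 425 loci of at least 1000 FPKM in mature seeds, 30 were listed at 0 in milk grains, or 7.06%. The 23 that are not among the 7 spanned 101 to 657 bp, with a median of 105 bp, and 22 of them were shorter than 300 bp. At 101 bp, 1 step between values in mature seeds was 6723 FPKM or more, above the limit of 1000 FPKM. Among loci of at least 300 bp the share was 2.48%, or 8 of 323, and among those of at least 1500 bp it was 3.59%, or 7 of 195, which were the glutelin loci themselves. The eighth was M_XLOC_001203 on chromosome 1 (3599919 to 3600575, minus strand), at 3146 FPKM in mature seeds, 685.7 FPKM in roots before flowering and 6.29 to 89.1 FPKM in the other 5 libraries above 0. Among loci of at least 300 bp listed at 0 in milk grains, the next below the lowest glutelin locus in mature seeds was M_XLOC_016066. It stood at 278 FPKM in mature seeds and 26996 FPKM in roots before flowering.

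Seed loci of comparable height were present in milk grains. The other 315 loci of at least 300 bp and 1000 FPKM in mature seeds that were above 0 in milk grains had a median of 619 FPKM there, with a range of 0.391 to 95428 FPKM, and 2 of them were below 1 FPKM. M_XLOC_021295, a minus-strand locus of chromosome 3 (31729099 to 31730225), had 183916 FPKM in mature seeds and 95428 FPKM in milk grains, so a level above that of any glutelin locus was listed in both grain libraries. Exact zeros beside high values were not limited to milk grains: of loci of at least 300 bp, 15 were listed at 0 there while reaching 1000 FPKM in some other library, against 14 in mature seeds and 5 to 83 in the 6 non-seed libraries. Of these 15, 7 were the glutelin loci, which were chosen with these values known. Glutelin loci were also 4 of the 55 in flowers, 4 of the 64 in flower buds and 2 of the 83 in the labelled roots after flowering. A stricter condition, 0 in 1 library and at least 10 FPKM in each of the other 7, was met in milk grains by 13 loci of 101 to 161 bp and by none of at least 300 bp. The glutelin loci could not meet this condition, as none exceeded 6.04 FPKM in flowers. In mature seeds it was met by 108 loci, of which 15 spanned at least 300 bp. Whether the 7 zeros in milk grains are failed estimates or absent transcripts was not tested.

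**Figure D2:**
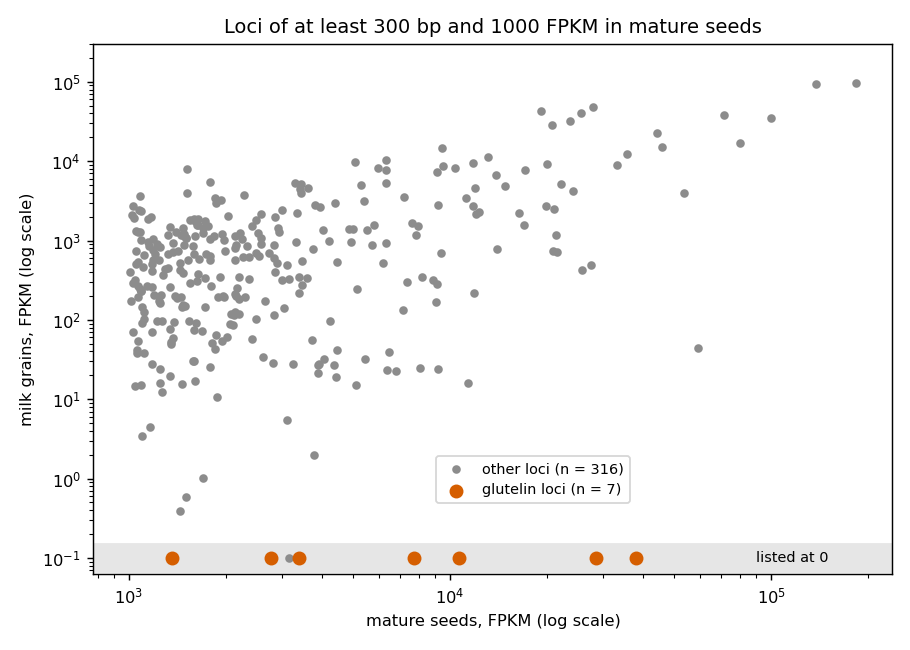
FPKM in milk grains (log scale) against FPKM in mature seeds (log scale) for loci of at least 300 bp and 1000 FPKM in mature seeds, 1 point per locus, with zeros on the grey strip. The 7 glutelin loci lie on the strip with 1 other locus, while the other 315 loci lie between 0.391 and 95428 FPKM in milk grains.

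In leaves, all 7 loci were detected at 4.51 FPKM or more. M_XLOC_006573 had 61.6 FPKM after flowering and 75.5 FPKM before flowering, and P_XLOC_003147 had 61.3 and 60.5 FPKM. P_XLOC_019146 stood at 29.9 FPKM after flowering and 28.5 FPKM before flowering, M_XLOC_015361 at 29.0 and 29.6 FPKM, and P_XLOC_014075 at 21.3 and 21.2 FPKM. The lowest were P_XLOC_014186 at 5.65 FPKM after flowering and 6.50 FPKM before flowering, and M_XLOC_014861 at 4.51 and 5.23 FPKM. The 2 leaf libraries were nearly alike at each locus: the ratio of after to before ran from 0.816 to 1.05. At least 4-fold apart in either direction were 0 of 7 loci, where 8.43% of 29611 loci were. With so low a share over all loci, that count says little about the 7. The median log2 ratio of the 7 was -0.03, against 0.05 over all compared loci.

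The order in leaves was not that of mature seeds. P_XLOC_019146 was number 6 of the 7 in mature seeds, below P_XLOC_014075 and P_XLOC_014186 on the same strand, but above both in each leaf library. In leaves it was close to M_XLOC_015361 on the minus strand, at 29.9 and 29.0 FPKM after flowering and 28.5 and 29.6 FPKM before flowering, so these 2 loci cannot be ordered there. Its leaf level was 1.08% of its mature seed level after flowering and 1.03% before flowering. In the other 6 loci that share ran from 0.161% at P_XLOC_003147 to 0.331% at M_XLOC_014861 after flowering, and from 0.159% to 0.384% at the same loci before flowering. P_XLOC_003147 and M_XLOC_006573, the 2 highest in mature seeds, were at 61.3 and 61.6 FPKM in leaves after flowering, closer than the gap between strands. In leaves before flowering they were at 60.5 and 75.5 FPKM, further apart than that gap and in the reverse of their mature seed order.

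These leaf shares were set beside those of other loci nearly limited to seeds, a group defined after the values were seen and without using leaves or milk grains. It held loci of at least 300 bp and 1000 FPKM in mature seeds whose values in flowers, flower buds and both libraries labelled roots were under 1% of the mature seed value. The 7 glutelin loci met this limit, and so did 99 others. The glutelin loci had a median leaf share of 0.272% after flowering, against 0.0466% for the others, and 0.273% against 0.0681% before flowering. Of the 99 others, 3 exceeded the lowest glutelin share in leaves after flowering, and 13 did so in leaves before flowering. These counts depend on the limit, which was chosen after the values were seen: at 0.1% they were 0 and 5 of 71 other loci, and at 5% they were 28 and 37 of 126. The 3 at the limit of 1% were P_XLOC_026995 at 0.451%, M_XLOC_028317 at 0.252% and M_XLOC_004408 at 0.177%, with mature seed values of 1855, 3596 and 1091 FPKM. At these 3, levels in leaves after flowering were near or below those in flowers. They were 8.36, 9.08 and 1.93 FPKM in these leaves, against 12.2, 8.15 and 5.39 FPKM in flowers. None of the 99 was listed at 0 in milk grains. Among them, the 10 loci at least as high in milk grains as in mature seeds had a median leaf share of 0.0804% after flowering, with a highest share of 0.150%. The 50 loci whose milk grain value was under 10% of the mature seed value had a median leaf share of 0.0356%, with a highest share of 0.451%. The 3 loci named above were among these 50. The 39 loci in between had a median leaf share of 0.0473%, with a highest share of 0.130%. Across the 98 of these loci above 0 in leaves after flowering, leaf levels had a Spearman correlation of 0.86 with mature seed levels and 0.67 with milk grain levels, as a description of loci measured in shared libraries.

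**Figure D3:**
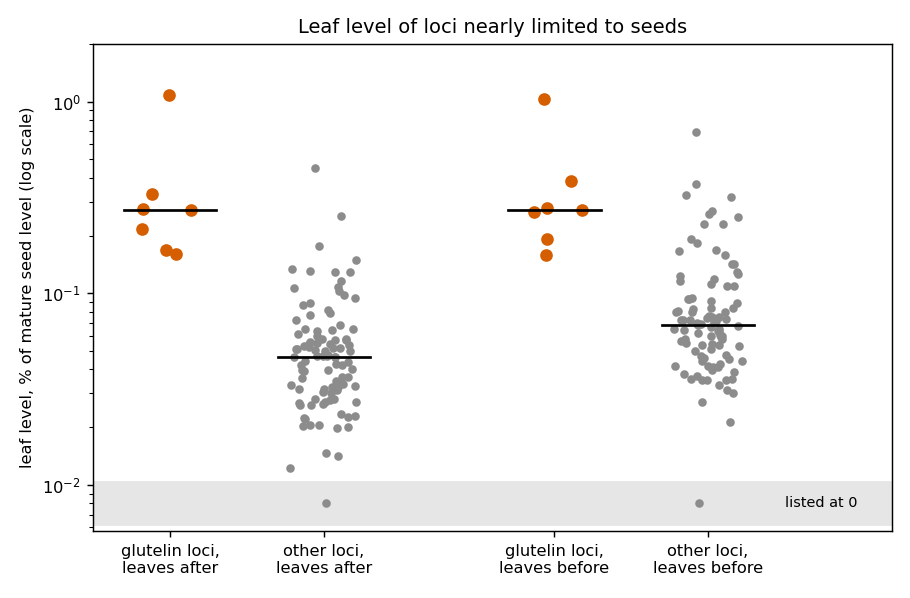
Leaf level as a percentage of the mature seed level (log scale) for the 7 glutelin loci and 99 other loci nearly limited to seeds, after and before flowering, 1 point per locus, with the median as a black bar. The glutelin medians are 0.272% and 0.273%, above the medians of the other loci at 0.0466% and 0.0681%.

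Roots and inflorescences held far less of these transcripts than leaves. In the root library labelled after flowering, P_XLOC_014075 and M_XLOC_014861 were listed at 0. P_XLOC_014186 stood there at 0.00615 FPKM, P_XLOC_019146 at 0.0158 FPKM, P_XLOC_003147 at 0.0175 FPKM and M_XLOC_015361 at 0.0467 FPKM, while M_XLOC_006573 had 10.2 FPKM. The smallest value above 0 among 657 loci of 1976 to 2101 bp in that library was 0.00615 FPKM, so these entries lie near the lower end of what it can show. In roots before flowering all 7 were above 0. M_XLOC_006573 had 12.2 FPKM there, P_XLOC_003147 1.59 FPKM, M_XLOC_015361 1.29 FPKM, and the other 4 had 0.0326 to 0.781 FPKM. The ratio of the labelled roots after flowering to roots before flowering was lower than 1 at all 7. Of the 3 loci with at least 1 FPKM, 0 were 4-fold lower, where 16.5% of 33668 loci were. With 3 loci compared, that count says little. With a pseudocount of 0.1 in place of 1, 2 of the 3 were at least 4-fold lower. The share of all loci at that setting is not given, so the count of 2 cannot be weighed.

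Leaf libraries and libraries labelled roots of the same period differed at every glutelin locus. In leaves after flowering 7 of 7 loci were at least 4-fold higher than in the root library labelled after flowering, where 0.736% of 29089 loci were, or 214. The log2 ratios ran from 2.46 to 5.94, with a median of 4.48, against 0.01 over all compared loci. Those 2 libraries were otherwise the most alike of all pairs of libraries, with the Spearman correlation of 0.96 given above. The 2 leaf libraries had a correlation of 0.91 with each other. Before flowering, leaves were at least 4-fold higher than roots at 7 of 7 loci too, where 13.3% of 32965 loci were, and the log2 ratios ran from 2.54 to 4.57. P_XLOC_003147 stood at 61.3 FPKM in leaves after flowering, against 0.0175 FPKM in the labelled roots after flowering, and at 60.5 FPKM in leaves before flowering, against 1.59 FPKM in roots before flowering. Both comparisons were added after the values were seen.

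In flowers and flower buds, 4 of the 7 loci were listed at 0 in both libraries: P_XLOC_014186, P_XLOC_019146, M_XLOC_014861 and M_XLOC_015361. P_XLOC_003147 had 0.422 FPKM in flowers and 0.549 FPKM in flower buds, and P_XLOC_014075 had 0.0295 and 0.0138 FPKM. M_XLOC_006573 was the single locus above 1 FPKM, at 6.04 FPKM in flowers and 6.34 FPKM in flower buds. It was also the only one compared between these 2 libraries, and it was not 4-fold apart, where 6.69% of 32324 loci were. Leaves after flowering were at least 4-fold above flowers at 7 of 7 loci, where 10.6% of loci were, and leaves before flowering were so against flower buds at 7 of 7, where 9.63% were. These comparisons share their leaf libraries with those against roots, so they are not separate evidence on the leaf level.

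The chromosome 10 locus differed from the other 6 in its span and its floor. Its value did not fall below 6.04 FPKM in any library apart from milk grains, whereas the others were at most 1.59 FPKM outside seeds and leaves. Within its 7097 bp span lies a second locus on the same strand, M_XLOC_006574 (13499582 to 13500339, 758 bp). M_XLOC_006574 was listed at 0 in both grain libraries, and stood at 3.04 FPKM in flowers and 1.42 FPKM in flower buds. It had 6.32 FPKM in leaves after flowering and 4.61 FPKM in leaves before flowering, and 11.4 FPKM in the labelled roots after flowering and 17.5 FPKM in roots before flowering. At one end M_XLOC_006573 overlaps P_XLOC_006250 on the plus strand by 53 bp, a locus at 6.53 FPKM in mature seeds, 15.5 FPKM in milk grains and 19.4 to 60.4 FPKM elsewhere. The sources used here do not say how reads of the enclosed locus entered the longer one.

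Strand and neighbourhood were then examined, since the libraries keep the strand of each read. P_XLOC_003147 lies wholly inside M_XLOC_003865 on the minus strand of chromosome 1 (32070714 to 32082488). M_XLOC_003865 stood at 19.6 FPKM in mature seeds and 39.8 FPKM in milk grains, and at 42.1 to 135.7 FPKM in the other libraries, so it was lowest where the glutelin locus was highest and was not listed at 0 in milk grains. The other 5 loci have no overlapping locus on either strand. The nearest loci on either side that are not themselves glutelin loci number 12, and they stood at 48.3 FPKM or less in mature seeds and 191.6 FPKM or less in milk grains. Of these 12, 4 were listed at 0 in milk grains. One of the 4, M_XLOC_014777 on chromosome 2 (8452015 to 8455936, minus strand), begins 3314 bp after the end of P_XLOC_014075 and had 16.9 FPKM in mature seeds and 2.18 to 11.5 FPKM in the non-seed libraries. The other 3, M_XLOC_019953, P_XLOC_006248 and M_XLOC_006577, were listed at 0 in mature seeds as well.

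P_XLOC_014186 and M_XLOC_014861 are adjacent on chromosome 2, on opposite strands with their ends facing each other and 3481 bp between them with no other locus. Among the RefSeq names, GLUB5 and GLUB4 are likewise neighbours with 0 genes between them, a similarity of arrangement that does not assign either name. The plus-strand locus was the higher of the pair in every library where either was above 0. It had 3381 FPKM in mature seeds against 1363 FPKM for the minus-strand locus, 5.65 against 4.51 FPKM in leaves after flowering, and 6.50 against 5.23 FPKM in leaves before flowering. Reads from copies of similar sequence may be shared among glutelin genes, and the sources used here do not say how the authors placed such reads, so the split between loci of this family is uncertain.

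Other loci near P_XLOC_014075 had high grain values too. Within 150 kb on either side of it, 46 other loci were listed, and 6 of these (13.0%) reached 100 FPKM in a grain library while staying under 100 FPKM in all non-seed libraries, where 4.63% of all loci did. The window and this limit were chosen after the values were seen. M_XLOC_014773 (8406570 to 8408689, minus strand) stood at 2288 FPKM in mature seeds and 3742 FPKM in milk grains, with 3.43 FPKM in leaves after flowering and 4.20 FPKM in leaves before flowering. M_XLOC_014771 (8401195 to 8403228, minus strand) had 51.7 FPKM in mature seeds and 1330.5 FPKM in milk grains, the reverse of the balance listed for the glutelin locus. M_XLOC_014781 (8516600 to 8518271, minus strand) had 1983 FPKM in mature seeds and 193.6 FPKM in milk grains. P_XLOC_014074, the locus just before P_XLOC_014075 on the same strand, had 2.14 FPKM in mature seeds and 191.6 FPKM in milk grains.

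**Figure D4:**
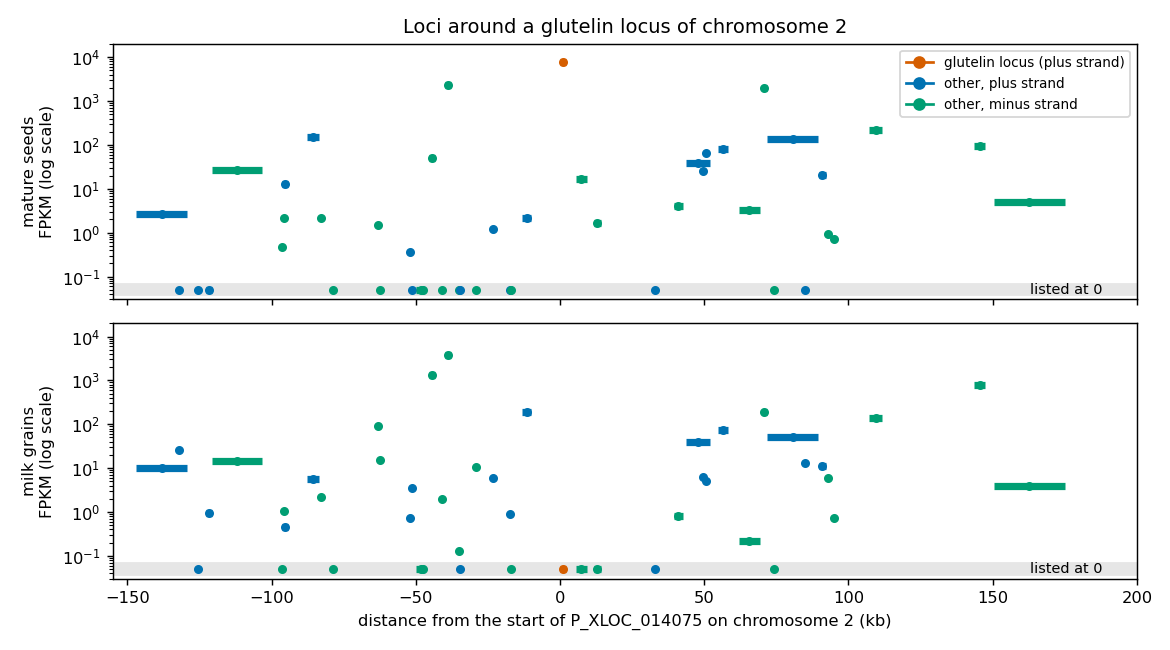
FPKM (log scale) of P_XLOC_014075 and the 46 other loci within 150 kb of it, in mature seeds (upper panel) and milk grains (lower panel), by distance from the start of P_XLOC_014075 in kb, with the span of each locus as a bar, its middle as a point and zeros on the grey strip. P_XLOC_014075 is the highest in the upper panel at 7748 FPKM and lies on the strip in the lower panel, where M_XLOC_014773 is highest at 3742 FPKM.

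The 7 loci were alike in pattern across libraries, in part because of how they were chosen. Over the 7 libraries without milk grains, Pearson correlations of log2(FPKM + 1) were taken between the 21 pairs of loci. They ran from 0.97 to 1.00 with a median of 0.99, a description of points that share library and depth. Mature seeds are among these libraries, and the loci were chosen with values above 1000 FPKM there. High correlations are built in by that choice, so they support nothing further. Loci with the most similar pattern were sought among those of at least 300 bp by correlation with the mean of the 7. Over the 7 libraries without milk grains, the 5 nearest were M_XLOC_033484, P_XLOC_011378, P_XLOC_009184, M_XLOC_031193 and P_XLOC_032760, with correlations of 0.999 to 1.00. They stood at 20772 to 99852 FPKM in mature seeds and 22801 to 40408 FPKM in milk grains. Their leaf levels were 17.0 to 45.9 FPKM after flowering and 16.5 to 63.7 FPKM before flowering, and they did not exceed 0.626 FPKM in the labelled roots after flowering or 1.82 FPKM in roots before flowering. M_XLOC_033484 on chromosome 7 (6613131 to 6613762, minus strand) was the nearest, at 71083 FPKM in mature seeds, 37762 FPKM in milk grains, 45.9 FPKM in leaves after flowering and 48.0 FPKM in leaves before flowering. With a pseudocount of 0.1, 3 of these 5 were again among the nearest. When milk grains were included, the 5 nearest shared no locus with these, and ranged from 1.90 to 200.01 FPKM in mature seeds. The first of them was M_XLOC_023939 on chromosome 4 (18457553 to 18459056, minus strand), with a correlation of 0.98, 200.01 FPKM in mature seeds and 27.4 FPKM in milk grains.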

How the data were processed

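The deposited table gives FPKM values per locus for 8 libraries, per the file headers on positions of MSU Release 7; the submitters' processing notes name the tools TopHat, Cufflinks and Cuffdiff, with versions and settings not given in the sources used here. All columns were matched to samples by the labels' titles. The loci, lists and rules were chosen with earlier results of these data known.

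Ratios were log2 of (FPKM + 1). Comparisons took loci that reached 1 FPKM in one of the libraries, and those at least 4-fold apart were counted over the whole table. Named loci were the 7, those overlapping them, their nearest neighbours, the 5 most similar by Pearson correlation, and those highest in mature seeds among zeros in milk grains. Loci named in the window of chromosome 2 and among leaf shares were added after their values were seen. Counting was tested on simulated data. No statistical test was possible with 1 library per group. Depth in reads is unknown, so no interval is given. No sequences were read. Python 3.11.15, pandas 2.3.3 and numpy 2.4.6 were used.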

Additional observations from a re-analysis of the deposited data

How the results depend on the processing

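Because the 7 loci were chosen for their mature seed level, a count of 7 under each alternative says little. The share of loci so called is given in brackets. All 7 stayed above the limit with a pseudocount of 0.1 (7.82%), a 16-fold limit (1.49%), rescaling to equal sums (2.62%) and by median ratio (6.02%). They also did so without the root library labelled after flowering (6.43%), against 6.11% as reported. Their median log2 ratio over the highest non-seed library was 8.45 as reported and without that library, 8.502 with a pseudocount of 0.1, 7.69 with equal sums and 8.46 with median-ratio scaling. Leaves were at least 4-fold above roots and inflorescences of the same period at 7 loci as reported, but at 5 with equal sums, where the pseudocount weighed more on divided values. With a filter of 5 FPKM, 6 loci were counted in leaves after flowering. The other alternatives of those 4 comparisons left 7. The share of all loci called in them ran from 0.736% to 13.3% as reported, and is not given for the alternatives. For the labelled roots after against before flowering, 2 loci were lower with a pseudocount of 0.1 and 2 with a 2-fold limit, against 0 as reported. The shares of all loci so called at these 2 settings are not given, so the counts cannot be weighed. Loci listed at 0 in milk grains and at 1000 FPKM in mature seeds numbered 30, but 82 at a limit of 100 FPKM, 8 among loci of at least 300 bp and 7 among those of at least 1500 bp. The median leaf share of the other loci nearly limited to seeds was 0.0466%, and 0.0465% or 0.0528% when their limit was 0.1% or 5% in place of 1%. Of those loci, 3 exceeded the lowest glutelin share in leaves after flowering as reported, 0 at 0.1% and 28 at 5%, against 13, 5 and 37 in leaves before flowering. The loci most similar in pattern changed entirely when milk grains were left out. With a pseudocount of 0.1, 2 of the 5 over 8 libraries and 3 of the 5 over 7 libraries were again found. No paired analysis was possible because each group has 1 library. Low values are limited by depth: the smallest value above 0 at loci of 1976 to 2101 bp was 0.0370 FPKM in mature seeds and 0.0119 FPKM in milk grains.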
